A study of Mus musculus with 20 samples.

Results

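The fatty acid binding proteins are described here through 6 genes, Fabp1, Fabp2, Fabp3, Fabp4, Fabp5 and Fabp7, out of 21154 genes named on the arrays. All 6 were found through the accession of their probes, 7 probes in all, and Fabp3, which had 2 probes, was represented by the brighter one. Their mRNA was measured in liver, mesenteric white fat (labelled Mwat), brown fat (labelled Bat), ileum and colon of male C57BL/6J mice. The mice were 5 weeks old at the start and spent 13 weeks on 1 of 4 diets. The control diet (CD) had 10% of its energy as fat and the high fat diet (HFD) 60%. The other two diets were the HFD supplemented at 2% by weight, either with porphyran (HFD+PP), which is a sulfated sugar polymer from nori seaweed, or with an extract of nori (HFD+Ex). For each tissue and diet the RNA of 7 mice was pooled and read on 1 array, 20 arrays in all. Differences therefore have no replicate check, and no p-value is given. The same mice gave the 5 tissues of a diet.

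Fatty acid binding proteins are small proteins of the cytosol that hold a long-chain fatty acid or another lipid inside a barrel of beta strands. They carry the lipid between membranes, oxidation, storage and nuclear receptors of the PPAR family, and several of their genes are themselves PPAR targets. Each has a home tissue, from which most took their older names: Fabp1 the liver and the absorptive cells of the intestine, Fabp2 the intestine, Fabp3 heart, muscle and brown fat, Fabp4 fat cells and macrophages, Fabp5 the epidermis, fat and capillary endothelium, and Fabp7 the developing brain.

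The genes lie on chromosome 6 (Fabp1), chromosome 3 (Fabp2, Fabp4 and Fabp5), chromosome 4 (Fabp3) and chromosome 10 (Fabp7). The bases upstream of the start are shown for Fabp1, Fabp2 and Fabp3, because these members had their highest levels in liver, ileum and brown fat respectively. RefSeq, build GRCm38.p6, gave the 250 bases before the start for 4 of the 6 members, all on the plus strand. The stretches are chr6:71199629-71199878 for Fabp1, chr3:122894822-122895071 for Fabp2 and chr4:130308488-130308737 for Fabp3. Capitals mark matches to any of 4 short motifs. These were the nuclear receptor half-site AGGTCA, the HNF1 half-site GTTAAT and the CDX core TTTATG, each on both strands, and the TATA box TATAAA on the gene strand.
Fabp1: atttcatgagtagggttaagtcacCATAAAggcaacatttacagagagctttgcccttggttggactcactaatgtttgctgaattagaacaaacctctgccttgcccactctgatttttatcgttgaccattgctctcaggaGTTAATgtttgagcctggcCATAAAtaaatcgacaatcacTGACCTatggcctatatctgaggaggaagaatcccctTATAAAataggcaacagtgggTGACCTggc
Fabp2: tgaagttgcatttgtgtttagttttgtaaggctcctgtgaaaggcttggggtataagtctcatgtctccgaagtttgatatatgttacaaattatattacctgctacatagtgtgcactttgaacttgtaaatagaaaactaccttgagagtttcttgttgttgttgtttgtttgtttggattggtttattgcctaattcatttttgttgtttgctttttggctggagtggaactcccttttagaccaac
Fabp3: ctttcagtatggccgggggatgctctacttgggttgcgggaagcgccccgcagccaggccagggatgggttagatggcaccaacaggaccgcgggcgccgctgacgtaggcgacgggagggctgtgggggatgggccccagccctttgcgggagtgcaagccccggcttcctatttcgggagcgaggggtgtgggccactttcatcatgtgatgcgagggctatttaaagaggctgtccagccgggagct

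The Fabp1 stretch held 2 nuclear receptor half-sites, at -67 to -62 and at -9 to -4 from the start, 1 HNF1 half-site, 2 CDX cores and 1 TATA box at -30 to -25. HNF1 is a transcription factor of liver and intestine, and CDX factors belong to the intestinal epithelium. The stretches of Fabp2 and Fabp3 held none of the 4 motifs, and that of Fabp7 held 1 nuclear receptor half-site. Among 32851 stretches of the same length, 14.02% held the nuclear receptor half-site, 6.43% the HNF1 half-site, 10.8% the CDX core and 7.59% the TATA box. These are matches of letters within this window and say nothing of binding.

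Levels are given as the log2 of the background-subtracted spot intensity minus the 75th percentile of that array, so 0 is a gene as bright as that percentile. A level of 1 probe cannot be set against the level of another. The spread of spots printed repeatedly within an array, scaled to a difference between 2 arrays, gave an SD of 0.092 log2. It leaves out labelling, hybridisation and slide, and all variation between mice and pools. Defining markers were present in each labelled tissue: Alb (albumin) was at 10.24 to 10.37 in the 4 liver arrays, Ucp1 (the uncoupling protein of brown fat) at 9.78 to 10.15 in the 4 brown fat arrays, and Adipoq (adiponectin) at 7.47 to 8.11 in mesenteric fat. Vil1 (villin of the intestinal brush border) was at 7.39 to 7.88 in ileum and 5.73 to 6.12 in colon. Markers of other cell types stood apart on several arrays. All 14 exocrine pancreas markers were well above background on the 4 mesenteric fat arrays, and their summed level ran from 5.08 on HFD to 11.05 on HFD+PP. The summed level of 12 hepatocyte markers was highest on the CD array in colon and on the HFD array in brown fat. In ileum 5 of the 12 were lower on HFD than on CD, although the summed level hardly differed between these arrays. The arrays lay on 4 slides. In mesenteric fat, HFD+PP and HFD+Ex lay on another slide than CD and HFD, and in brown fat HFD+Ex lay on another slide than the other diets, so slide and diet cannot be told apart there. The other diet comparisons lay within 1 slide. Liver, ileum and colon each lay on a different slide, and brown and mesenteric fat shared a slide only in part. Differences between tissues therefore also hold any difference between slides.

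Some members stood far above their level elsewhere in a single tissue. Fabp1 was 149-fold higher in liver than in ileum, the next tissue, and Fabp3 was 721-fold higher in brown fat than in mesenteric fat, both as means over the 4 diets. Fabp2 was 3.19-fold higher in ileum than in liver. A gene was counted as highest in 1 tissue when its lowest array there lay at least 1 log2 (2-fold) above all 16 arrays of the other tissues. This held for 3 of the 6 members, Fabp1 and Fabp7 in liver and Fabp3 in brown fat, and for 13.5% of 18909 genes, 1084 of them in liver, 676 in brown fat, 266 in ileum, 291 in colon and 227 in mesenteric fat. Fabp7 was just inside this threshold, at 1.103 log2 above the nearest array. Fabp2 in ileum, at 0.996, and Fabp4 in brown fat, at 0.80, were just outside it. In these bulk samples fewer cells of a type and less RNA per cell cannot be told apart.

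**Figure D1:**
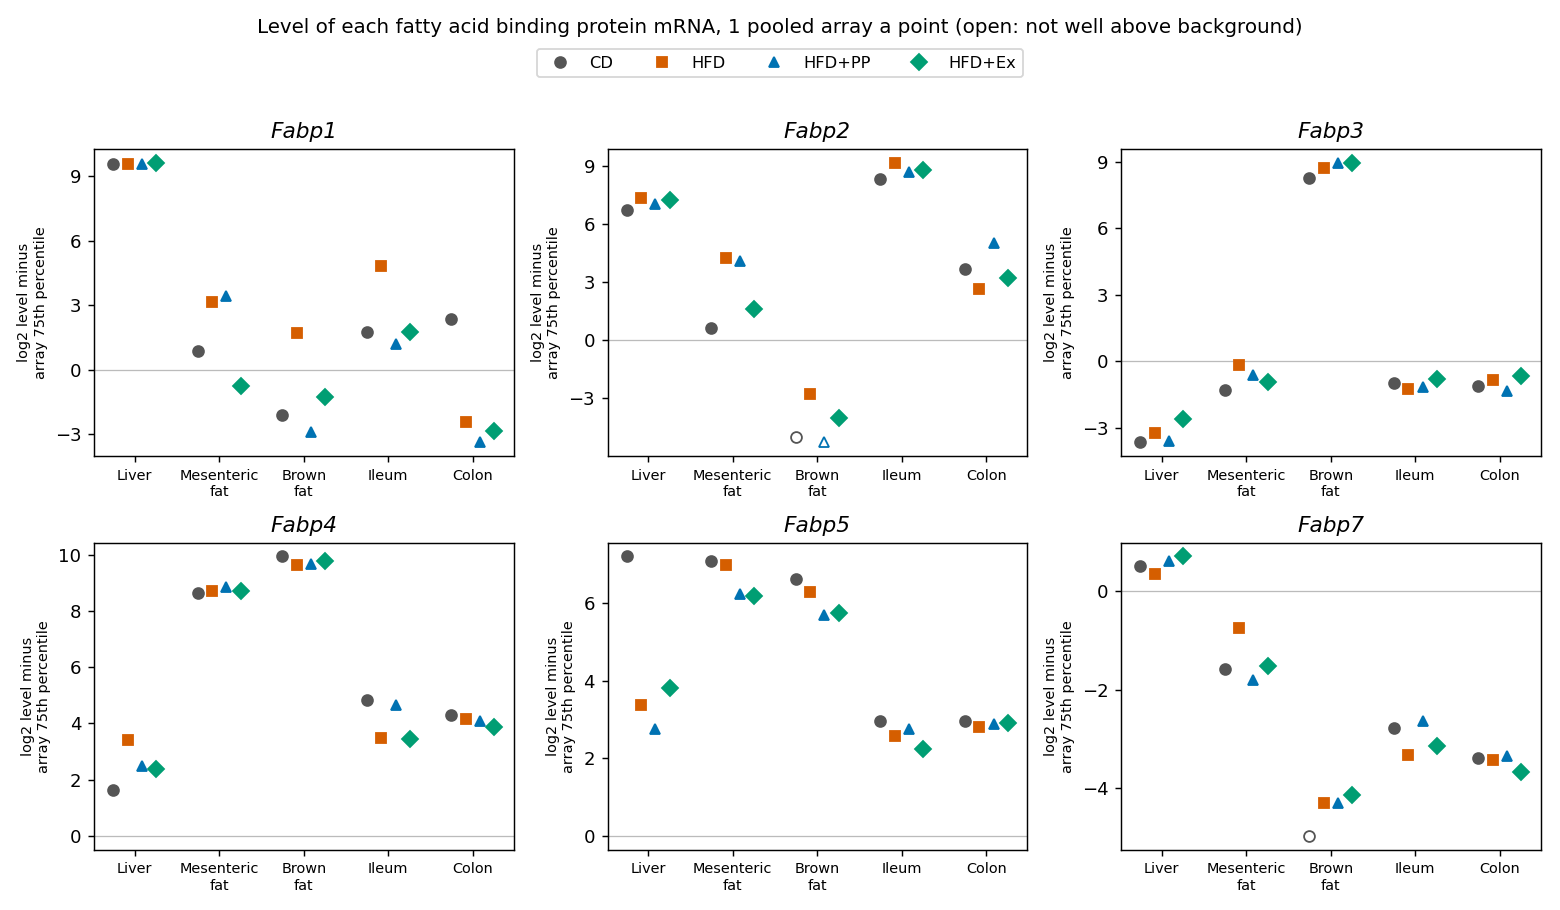
Level of each member on each of the 20 arrays, as log2 intensity minus the 75th percentile of the array, by tissue and diet; each point is 1 pooled array and open points were not well above background. Fabp3 in brown fat and Fabp1 in liver sit far above all other arrays, whereas Fabp1 outside the liver and Fabp5 in liver spread widely over the diets.

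Fabp1, liver fatty acid binding protein, binds fatty acids and bile acids and is among the most abundant proteins of the hepatocyte cytosol. In the order CD, HFD, HFD+PP and HFD+Ex its liver levels were 9.60, 9.60, 9.57 and 9.64. The range over diets was 0.07 log2, and 96.6% of the 15834 genes measured in liver had a range at least as large. Outside the liver the same probe varied strongly. In mesenteric fat it read 0.88, 3.14, 3.40 and -0.75, high on HFD and HFD+PP. In brown fat it read -2.11, 1.70, -2.93 and -1.27, high on HFD alone. In ileum it read 1.76, 4.83, 1.20 and 1.76, again high on HFD alone. In colon it read 2.33, -2.46, -3.37 and -2.89, high on CD alone. The 4.63 log2 range in brown fat was reached by 9 of 16250 genes, and the 5.71 log2 range in colon by 12 of 17388, counting Fabp1 itself. After liver, the order of the mean levels was ileum, mesenteric fat, brown fat and colon, and each of these overlapped the next over its 4 arrays.

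Fabp2, intestinal fatty acid binding protein, serves fatty acid handling in enterocytes. Its levels in ileum were 8.33, 9.18, 8.70 and 8.79, and in liver 6.71, 7.34, 7.02 and 7.24. These 8 arrays were its highest, and ileum and liver did not overlap. In colon it read 3.67, 2.66, 5.02 and 3.24, with HFD+PP highest. In mesenteric fat it read 0.64, 4.26, 4.08 and 1.61, low on CD and HFD+Ex. In brown fat 2 of 4 arrays were well above background, HFD at -2.76 and HFD+Ex at -4.02. The order was ileum, liver, colon, mesenteric fat and brown fat, with overlap between colon and mesenteric fat and between no other neighbours.

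Fabp3, heart-type fatty acid binding protein, supplies fatty acids to oxidation in muscle and brown fat. In brown fat it stood at 8.26, 8.71, 8.96 and 8.95. The 16 other arrays lay between -3.64 and -0.19, so the closest was 8.45 log2 below. In mesenteric fat it read -1.31, -0.19, -0.64 and -0.96. Ileum lay between -1.28 and -0.82 and colon between -1.34 and -0.66. These 3 tissues overlapped, and liver, at -3.64, -3.24, -3.60 and -2.62, lay below them. The second Fabp3 probe gave diet differences within 0.25 log2 of the first outside the liver. In liver the probes disagreed in sign for HFD+Ex minus HFD, at 0.62 on the brighter and -0.78 on the other. Skeletal muscle markers were present in the brown fat RNA, 11 of 11 well above background on each of the 4 arrays. Their summed level was 7.17, 6.72, 7.73 and 7.12 in the order of the diets, lowest on HFD and highest on HFD+PP, against 2.29 to 3.26 in mesenteric fat. Their part in the Fabp3 level was not tested.

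Fabp4, the adipocyte protein also called aP2, is a classical PPAR gamma target that delivers fatty acids released by lipolysis. Its levels in brown fat were 9.94, 9.65, 9.67 and 9.78, and in mesenteric fat 8.63, 8.70, 8.85 and 8.70. The mean was 1.04 log2 higher in brown than in mesenteric fat, with 0.82 to 1.31 within the 4 diets, but this direction flipped to -0.055 log2 under quantile normalization. The 4 diets differed by at most 0.29 log2 in either fat tissue. In liver the levels were 1.64, 3.41, 2.50 and 2.36, lowest on CD and highest on HFD. In ileum they were 4.83, 3.50, 4.67 and 3.45, high on CD and HFD+PP. In colon they were 4.31, 4.14, 4.10 and 3.86. Ileum and colon overlapped, and the other neighbours in the order brown fat, mesenteric fat, ileum, colon and liver did not.

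Fabp5, epidermal fatty acid binding protein, shares fat cells, macrophages and endothelium with Fabp4. In liver it read 7.20, 3.36, 2.75 and 3.81, so the CD array stood at least 3.39 log2 above the others. This 4.45 log2 range was reached by 14 of the 15834 genes measured in liver. In mesenteric fat it read 7.08, 6.99, 6.22 and 6.18, and in brown fat 6.63, 6.29, 5.68 and 5.74. In both fat tissues the arrays with either supplement lay below CD and HFD, by less than 1 log2. In ileum it read 2.97, 2.56, 2.75 and 2.24. In colon the levels of 2.96, 2.80, 2.87 and 2.92 spanned 0.15 log2, a range that 78.7% of genes matched or passed. The order was mesenteric fat, brown fat, liver, colon and ileum, and each neighbour overlapped the next.

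Fabp7, the brain-type protein of radial glia, was dimmest of all in brown fat. Liver was highest at 0.51, 0.35, 0.61 and 0.70. Mesenteric fat followed at -1.58, -0.75, -1.80 and -1.52, then ileum between -3.33 and -2.64, colon between -3.66 and -3.35, and brown fat between -4.31 and -4.15 on the 3 arrays that were well above background. No neighbours in that order overlapped, although ileum and colon were 0.02 log2 apart at their closest. Clec4f and Vsig4 mark Kupffer cells, the resident macrophages of the liver. Both were also highest in liver, at 3.78 to 4.07 and at 3.72 to 3.996. They are 2 of 13 listed macrophage markers, and 1084 genes were highest in liver by the rule above. The summed level of all 13 macrophage markers was instead highest in mesenteric fat, at 7.62 to 8.19 against 7.03 to 7.17 in liver. Whether macrophages or any other cell type bear on the Fabp7 level was not tested.

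Diet differences were counted when they reached 1 log2 and the probe stood well above background on either array. Over 6 members and 20 comparisons, 29 of 120 differences did so, beside 4.52% of the differences of all genes measured. When comparisons with the CD arrays of colon and ileum and the HFD array of brown fat were left out, 19 of 90 did, beside 4.51%. Without mesenteric fat 21 of 96 did, beside 3.31%. Fabp1 and Fabp2 accounted for 20 of the 29. Comparisons with the HFD array share that array, so opposite signs of HFD minus CD and of a supplement minus HFD are not independent. With 6 members, 1 past the threshold is already a larger share than most of the backgrounds printed below, so little can be read from a count of 1.

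**Figure D2:**
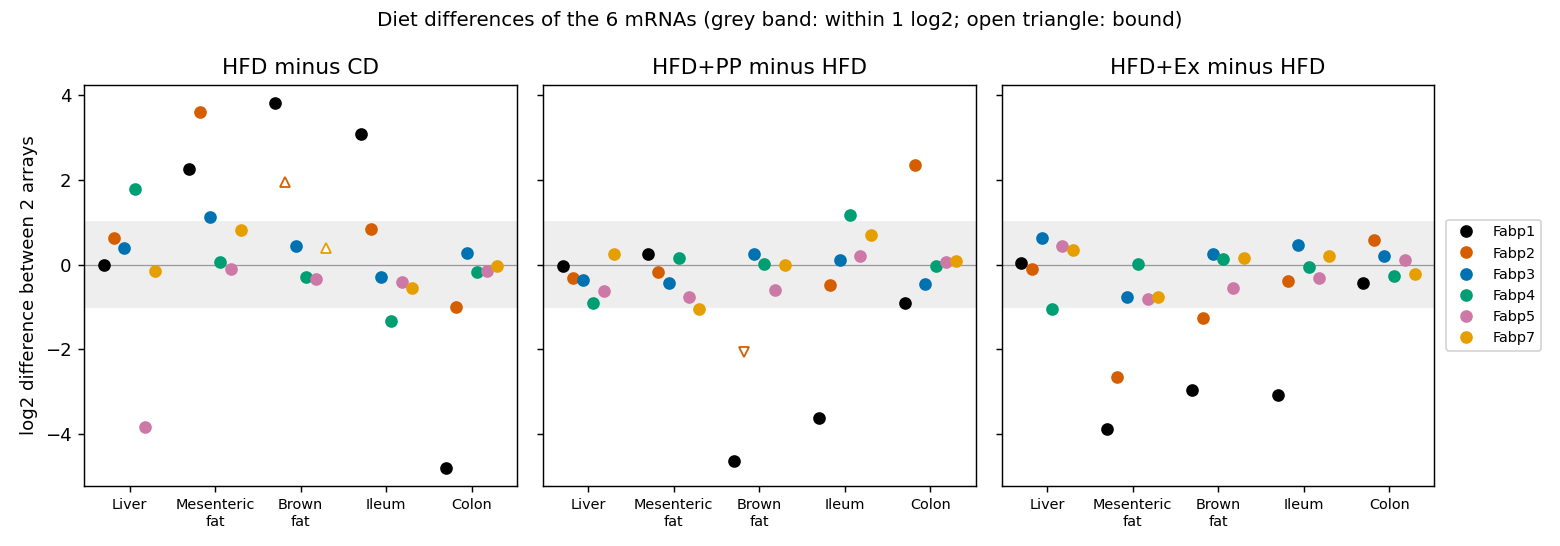
Log2 differences of the 6 members between 2 arrays of a tissue, for HFD minus CD and for each supplement minus HFD; each point is 1 gene, the grey band marks differences under 1 log2, and open triangles are bounds against an array where the probe was dim. Fabp1 lies far outside the band in at least 1 panel for 4 tissues and within it in liver.

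In liver, Fabp5 was 14.3-fold lower on HFD than on CD, and Fabp4 was 3.42-fold higher. They were the 2 of 6 members past 1 log2, against 4.82% of all genes measured. HFD+PP minus HFD had 0 of 6 members, against 2.13%, with Fabp4 at -0.91. With the extract, 1 of 6 was past 1 log2 against HFD, Fabp4 at -1.05, beside 3.05% of genes. Fabp4 was thus lower by a like amount with either supplement, with values on opposite sides of the threshold. Between the supplements (HFD+Ex minus HFD+PP) 1 of 6 was, Fabp5 at 1.06, beside 1.87%. Fabp4 in HFD+Ex minus HFD fell short of 1 log2 with normexp background correction, at -0.995, and with quantile normalization, at -0.98. Fabp5 between the supplements did so with quantile normalization, at 0.95. Fabp1, Fabp2, Fabp3 and Fabp7 stayed under 1 log2 in these 4 liver comparisons by their brightest probe. The second Fabp3 probe was past it in HFD+PP minus HFD, at -1.101 against -0.36 on the brighter. Among fat cell markers in liver, 4 of 8 measured were higher on HFD than on CD, Cfd and Cidec among them, with Cidec, a lipid droplet protein, at 0.42, 4.70, 2.76 and 3.15. Adipoq was well above background on 1 of the 4 liver arrays, with readings between -6.03 and -3.78, and the list's summed level was 8.76 on CD and 8.30 on HFD. Of 13 macrophage markers, 3 were higher on HFD and none lower. The summed level of markers of mesothelium, the lining of the abdominal cavity, was also lowest on CD and highest on HFD, at -1.20, 0.27, -0.52 and -0.45. On HFD 5 of 6 measured were higher than on CD and none lower, with a median of 1.35 log2, and 2 of 6 were lower with either supplement than on HFD. The part of these cell types in the Fabp4 difference was not tested.

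In mesenteric fat, Fabp2 was 12.2-fold, Fabp1 4.80-fold and Fabp3 2.16-fold higher on HFD than on CD. These were 3 of 6 members, against a background of 17.3%, the widest of the 20 comparisons. HFD+PP minus HFD had 1 of 6, Fabp7 at -1.05, against 8.89%. On HFD+Ex, Fabp1 was 14.9-fold and Fabp2 6.28-fold lower than on HFD, which is 2 of 6 against 7.45%. The difference between HFD+Ex and HFD+PP took in the same 2 genes, Fabp1 at -4.15 and Fabp2 at -2.47, against 3.36%. Fabp4, the fat cell member, differed by at most 0.21 log2 over the 4 diets. Markers of enterocytes were likewise high on HFD and HFD+PP. On HFD 12 of 12 were higher than on CD, with a median of 2.55 log2, and on HFD+Ex 12 of 12 were lower than on HFD, with a median of -3.38. Their summed level was 2.45, 4.66, 4.07 and 2.17. Relative to its own mean in ileum, Fabp2 lay at -8.11, -4.49, -4.67 and -7.14 log2, and the median enterocyte marker at -8.38, -6.36, -6.53 and -9.68. Cdx2, a transcription factor of the intestinal epithelium, read -6.00, -2.82, -2.22 and -6.41, and was not well above background on CD and HFD+Ex. It was 1 of the 3 genes closest to Fabp2 in diet deviations, as given below, so its course is no separate support. Of the exocrine pancreas markers 14 of 14 were lower on HFD than on CD. The pancreas list summed to 10.35, 5.08, 11.05 and 9.55, so it was low on HFD alone, and on HFD+PP it was high together with Fabp1 and Fabp2. Lymphocyte markers were also low on HFD. There 12 of 12 were lower than on CD, with a median of -3.43 log2, and 11 of 12 were higher with either supplement than on HFD. The lymphocyte list summed to 7.91, 4.59, 6.92 and 6.86. Of 12 macrophage markers 8 were higher and 3 lower on HFD than on CD, with a median of 1.66 log2. The part of gut, pancreas, lymphoid or macrophage RNA in these differences was not tested. With normexp, Fabp3 in HFD minus CD was 0.91 and Fabp7 in HFD+PP minus HFD -0.73, both short of 1 log2. The Fabp7 value was also short of it at -0.97 with scaling to bright probes and at -0.98 in the authors' deposited matrix.

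In brown fat, Fabp1 was 14.1-fold higher on HFD than on CD, and Fabp2 was at least 3.84-fold higher. They were 2 of 6 members, against 9.34%. HFD+PP minus HFD had the same 2 genes, with Fabp1 24.8-fold lower and Fabp2 at least 4.21-fold lower, against 3.7%. Both were again past 1 log2 in HFD+Ex minus HFD, Fabp1 at -2.97 and Fabp2 at -1.26, against 4.18%. Between the supplements Fabp1 alone was, at 1.67, against 2.75%. Fabp3, Fabp4, Fabp5 and Fabp7 stayed under 1 log2. Hepatocyte markers moved with Fabp1. On HFD 7 of 11 measured were higher than on CD, with a median of 3.12 log2, and on HFD+PP 7 of 11 were lower than on HFD, with a median of -2.32. Their summed level was 3.80, 4.89, 3.75 and 4.09, with 6, 11, 8 and 11 of 12 well above background. Alb read -2.24, 1.24, -2.81 and -0.93. Relative to its own liver mean, Fabp1 lay at -7.90 on HFD, and the median hepatocyte marker at -9.26. Macrophage markers were high on HFD as well, with 11 of 12 higher than on CD, a median of 2.12 log2 and a summed level of 4.55, 6.30, 5.70 and 5.14. The part of liver or macrophage RNA in the Fabp1 and Fabp2 differences was not tested. With normexp, Fabp2 was at 0.49, -0.74 and -0.43 in HFD minus CD, HFD+PP minus HFD and HFD+Ex minus HFD, all short of 1 log2. The first and second of these Fabp2 differences had no value when both arrays had to be above background.

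In ileum, Fabp1 was 8.43-fold higher on HFD than on CD, 12.4-fold lower on HFD+PP than on HFD, and 8.42-fold lower on HFD+Ex than on HFD. Fabp4 was 2.53-fold lower on HFD than on CD and 2.25-fold higher on HFD+PP than on HFD. This gave 2 of 6 members in HFD minus CD against 3.89%, 2 of 6 in HFD+PP minus HFD against 2.9%, and 1 of 6 in HFD+Ex minus HFD against 1.85%. Between the supplements it was 1 of 6, Fabp4 at -1.21, against 3.3%. Fabp2, the other enterocyte member, stayed within 0.85 log2 over the diets. Enterocyte markers were higher on HFD than on CD in 4 of 12 cases, with Apoa4, an apolipoprotein of chylomicrons, at 0.56, 3.25, 1.82 and 2.63. Their summed level was 10.16, 10.54, 10.30 and 10.35. Of 12 hepatocyte markers 5 were lower and 2 higher on HFD than on CD, with a median of -0.73 log2, and their summed level was 4.86, 4.85, 4.41 and 4.91. Alb, among the 5, read 1.12, -5.91, -6.96 and -6.03, high on CD, where Fabp1 was not. Only its CD reading was well above background. Fat cell markers moved with Fabp4. On HFD 5 of 10 were lower than on CD, with a median of -1.45 log2, and on HFD+PP 6 of 10 were higher than on HFD, with a median of 1.49. Their summed level was 5.97, 5.19, 5.55 and 5.11. Adipoq read 2.20, 0.18, 1.88 and 0.27, in the same order as Fabp4 but for the last pair. The part of attached fat in the Fabp4 differences was not tested. Nor was the part of the sampled stretch of gut in the Fabp1 differences.

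In colon, Fabp1 was 27.7-fold lower on HFD than on CD and Fabp2 was 2.01-fold lower. They were 2 of 6 members, against 2.15%, but Fabp2 was short of 1 log2 with normexp, at -0.94. HFD+PP minus HFD had Fabp2 alone, 5.14-fold higher, against 2.85%. No member was past 1 log2 in HFD+Ex minus HFD, 0 of 6 against 1.54%, and HFD+Ex minus HFD+PP had Fabp2 alone, at -1.78, against 3.15%. Hepatocyte markers were high on CD like Fabp1. On HFD 7 of 12 were lower than on CD, with a median of -2.22 log2, and their summed level was 5.80, 4.70, 4.26 and 4.65. Alb read 2.55, -1.99, -2.36 and -2.35. Relative to its liver mean, Fabp1 lay at -7.27 on CD, and the median hepatocyte marker at -7.65. For Fabp2, 2 of 11 measured enterocyte markers were higher on HFD+PP than on HFD. Cdx2 read 2.71, 1.25, 3.45 and 1.70, in the same order of arrays as Fabp2. Among 16032 candidates, Cdx2 was also 1 of the 3 genes closest to Fabp2 once each gene was centred within each tissue. Its order in these same arrays is therefore no separate support. The part of liver RNA or of the sampled stretch of gut in these differences was not tested.

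**Figure D3:**
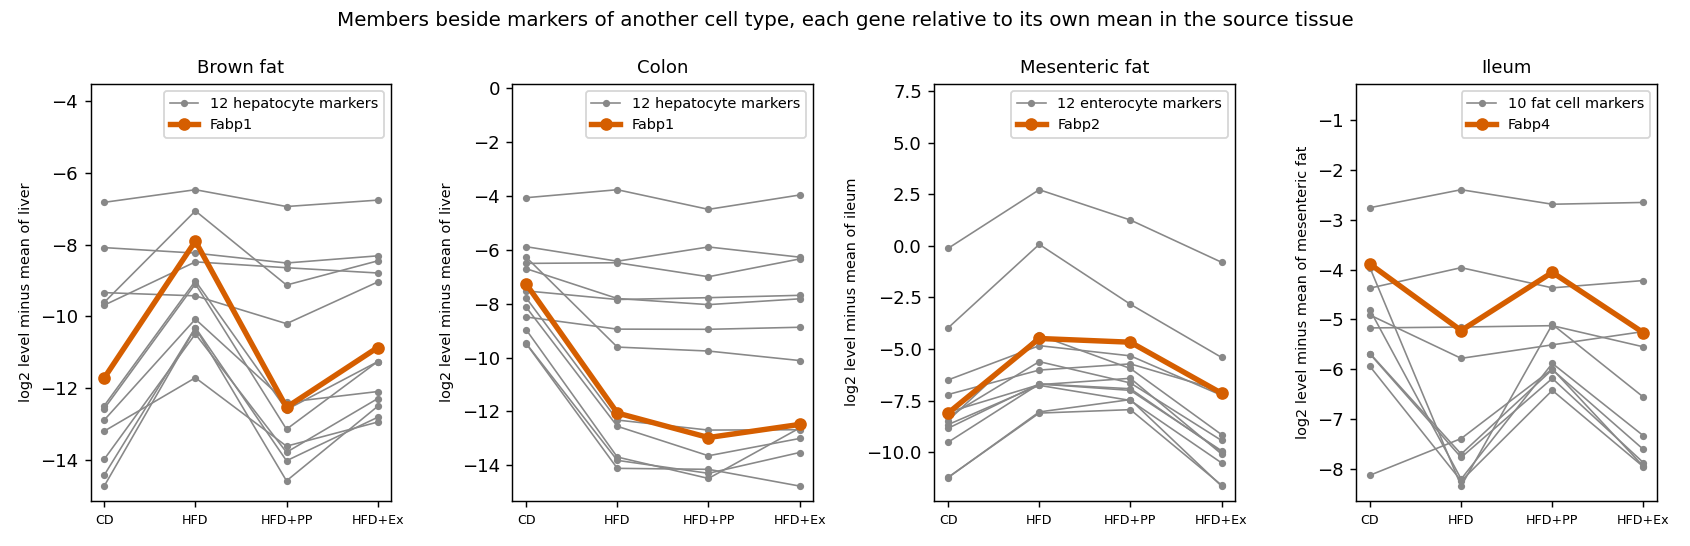
Log2 level minus the gene's own mean in a source tissue, by diet, for Fabp1 with 12 hepatocyte markers in brown fat and colon, Fabp2 with 12 enterocyte markers in mesenteric fat, and Fabp4 with 10 fat cell markers in ileum; each line is 1 gene and each point 1 array. From CD to HFD the markers past 1 log2 in the direction of the member were 7 of 11 measured in brown fat, 7 of 12 in colon, 12 of 12 in mesenteric fat and 5 of 10 in ileum, and the others measured differed by less than 1 log2.

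Fabp6, the bile acid binding relative of the ileum, read 9.48, 9.66, 9.56 and 9.43 there and was 171-fold higher in ileum than in colon. In mesenteric fat it read -1.21, 2.56, 1.78 and -1.81, high on HFD and HFD+PP as Fabp2 and the enterocyte markers were. Fabp9 was well above background on 12 of 20 arrays, Fabp12 on 14, and Pmp2, the myelin member, on 0. Among 25 genes of fatty acid uptake and activation on the arrays, 1 of 23 measured in liver was past 1 log2 in HFD minus CD. This was Cd36, the fatty acid translocase, at 0.95, 3.07, 2.38 and 2.45, which took the same high on HFD as Fabp4. In mesenteric fat 4 of 24 were higher and 2 lower, with Cd36 at 2.27-fold higher and Acsm3 at 11.6-fold lower. In brown fat 2 of 22 were higher and 2 lower, among them Acsl5, an acyl-CoA synthetase, 2.89-fold lower, and Slc27a5, a liver transport protein, 4.07-fold higher. In ileum 0 of 23 were higher and 2 lower, Lpl 3.43-fold and Slc27a5 8.03-fold, and in colon 0 of 24 were higher and 2 lower, led by Slc27a5 at 10.4-fold. Over all genes, the share past 1 log2 in either direction was 4.82% in liver, 17.3% in mesenteric fat and 9.34% in brown fat. It was 3.89% in ileum and 2.15% in colon. The liver count was near its share, and little can be read from counts this small. Lpl, lipoprotein lipase, read 2.45, 0.67, 1.97 and 0.55 in ileum, the course of Fabp4. The median HFD minus CD difference of this list was 0.11 log2 in liver, 0.39 in mesenteric fat, -0.32 in brown fat, -0.23 in ileum and -0.026 in colon, beside -0.049, 0.12, -0.13, -0.0021 and 0.030 over all genes.

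Of 12 PPAR receptors and coactivators, 1 was higher in HFD minus CD in each of liver, mesenteric fat and ileum, and none in brown fat or colon. Over all genes measured, 535 of 15378 were higher in liver, 1449 of 16357 in mesenteric fat and 267 of 16512 in ileum. With 12 genes, little can be read from a count of 1. In liver the gene was Pparg, at 1.69, 3.22, 2.58 and 2.97, with Ppara between 6.80 and 7.00. In ileum it was Ppara, at 2.40, 3.40, 2.31 and 3.09, highest on HFD as Fabp1 was, and high on HFD+Ex, where Fabp1 was not. In mesenteric fat it was Hnf4a, a liver and gut transcription factor, at -2.39, -0.07, 0.10 and -3.69. Pparg in the fat tissues stayed between 4.18 and 4.97 in mesenteric fat and between 6.48 and 6.71 in brown fat.

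The genes most like each member were those with the smallest mean absolute difference over the 20 arrays, after each gene was centred on its own mean and dim values were set to the floor. For Fabp1 they were Apoc3, Serpina1e and Serpina1d, all secreted liver proteins, with Apoc3 at 1.04 log2 against a median of 3.55 over 15813 genes. For Fabp2 they were Ces2e, Cyp4f14 and Nat8, led by Ces2e, a carboxylesterase, at 1.12. For Fabp3 they were Myh8 at 0.88, Tnnt3 at 1.096 and Cpt1b at 1.11. Myh8 and Tnnt3 are contractile proteins of skeletal muscle, and Cpt1b is the muscle and brown fat enzyme that admits fatty acids to mitochondria. For Fabp4 they were Phlda3, Lmo1 and Meox2, led by Phlda3 at 0.32. For Fabp5 they were Cldn5 at 0.49, a tight junction protein of endothelium, Nos3, the endothelial nitric oxide synthase, and Lrmda, but none of the 3 had the high CD array of Fabp5 in liver. For Fabp7 they were Gsap at 0.34, C1ra, a complement protease, and Fn1, fibronectin.

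**Figure D4:**
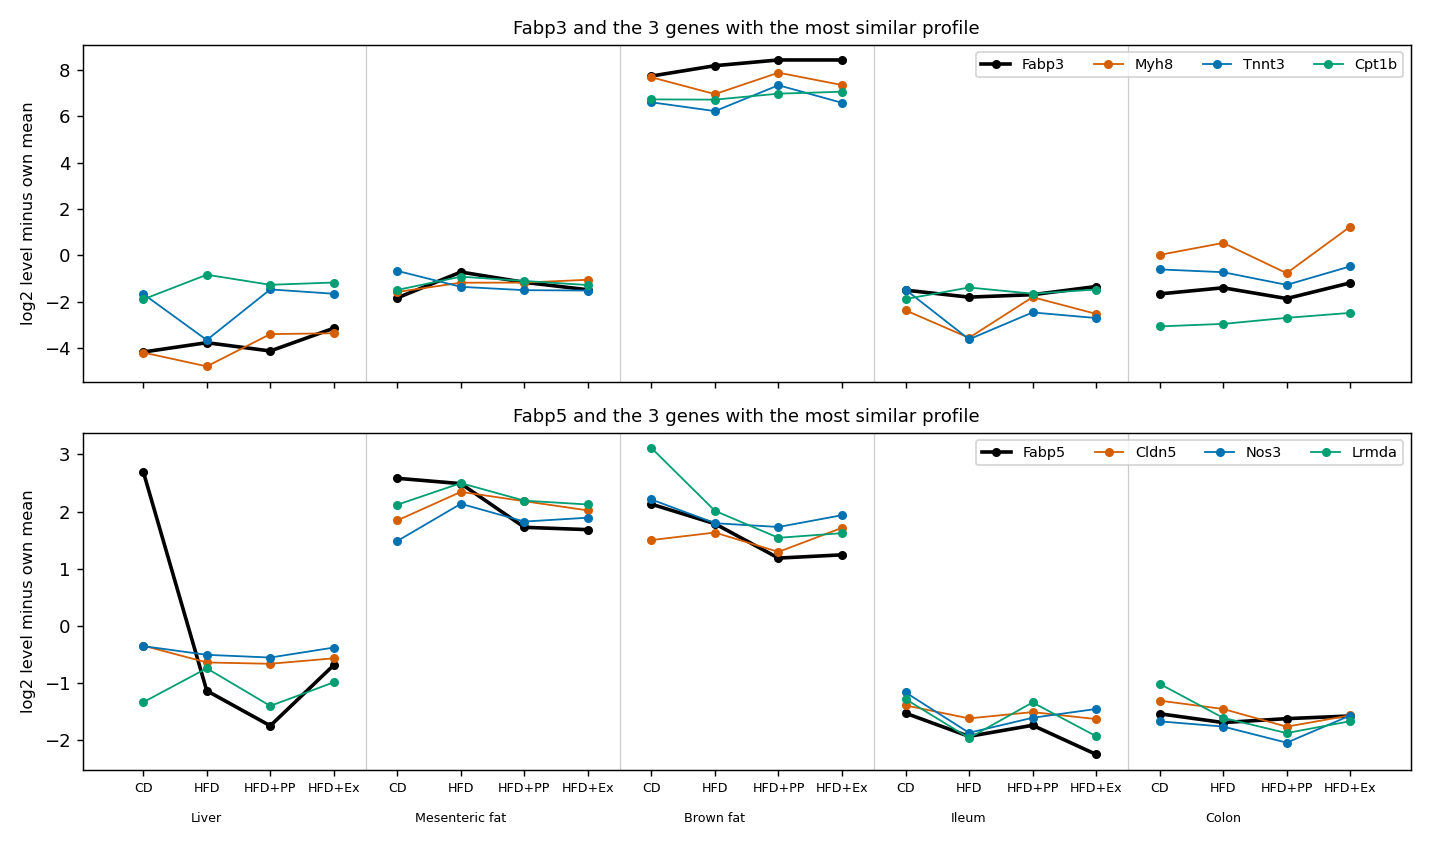
Log2 level minus the gene's own mean over 20 arrays for Fabp3 and Fabp5 (thick black) and the 3 genes with the most similar profile, by tissue and diet; each point is 1 pooled array. The 4 genes of the upper panel share the high brown fat arrays, and in the lower panel Fabp5 leaves the other 3 genes on the liver CD array.

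Compared on diet deviations alone, with each gene centred within each tissue, the genes most like Fabp5 were Pnpla3, G6pd2 and 9330179D12Rik, at 0.24, 0.28 and 0.29 log2 against a median of 0.53 over all candidates. In liver Pnpla3, a lipase-family gene induced by the lipogenic factor SREBP-1c, read -0.06, -4.14, -4.40 and -3.77, with CD high as for Fabp5. G6pd2, a near-identical copy of G6pdx whose probe may read both, stood at -2.50 on CD and between -5.72 and -5.08 on the other diets. The lowest of these readings was not well above background. The genes most like Fabp4 were Adipoq, Adig and Lpl, at 0.17, 0.17 and 0.18 against a median of 0.33. All 3 belong to fat cells, and all 3 were lower in ileum on HFD and HFD+Ex. For Fabp1 the closest were Apoa1, Rdh7 and Apoh, at 0.56, 0.61 and 0.63 against a median of 1.27. For Fabp2 they were Slc51a, Guca2a and Cdx2, at 0.31, 0.33 and 0.39 against a median of 0.69. Fabp1, Fabp2, Fabp4 and Fabp5 were chosen for this comparison after their values were seen.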

How the data were processed

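Total RNA of 5 tissues on 4 diets was hybridised to 20 1-colour arrays, and each group was 1 array of RNA pooled from 7 mice, per the labels. The deposited scanner files hold an intensity per spot, background-subtracted, per the file headers, by Agilent Feature Extraction (version 11.5.1.1, protocol GE1_1105_Oct12). Control and outlier spots were left out and spots of a probe averaged, leaving 55681 probes. The files' accessions were matched to RefSeq, which named 28026 of them. Values were log2 minus the 75th percentile of each array, and the brightest probe stood for a gene. A difference against a dim array was taken at that array's floor (-6.57 to -4.70 log2) and is a bound. The calling step was run on simulated shifts larger than the threshold, in bright genes and with noise of the size of the spot spread only. This checks the code, not calls on dim arrays or between pools. No test was run with 1 array per group. Alternatives were normexp (offset 50, on the median signal, as the files hold no mean signal) and quantile normalization with limma 3.58.1 in R 4.3.3, other scalings, filters and probe rules, and the deposited matrix of intensity values. Against the scanner values, that matrix was the processed signal times 1 factor per array, linear and not centred, with column medians from 53.5 to 103.6, and what set the factor is not known. Python 3.11.15 was used otherwise.

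The members, gene lists and rules were chosen with earlier results of these data known. Named are the 6 members, the 3 most similar genes of each, up to 4 list genes per tissue past 1 log2, Fabp6, Cd36, Lpl, Pparg and Ppara, and up to 3 markers beside a result. Cfd and the levels of Ucp1, Vil1 and Alb as checks of the tissue labels were chosen after their values were seen.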

Additional observations from a re-analysis of the deposited data

Results flagged for a closer look

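Under the same contrast some members lay past 1 log2 in opposite directions in different tissues. With 1 array per group, none of these differences between tissues was tested. HFD minus CD was 2.26 log2 in mesenteric fat, 3.81 in brown fat and 3.08 in ileum for Fabp1, but -4.79 in colon. For Fabp2 it was 3.61 in mesenteric fat and at least 1.94 in brown fat, but -1.01 in colon. For Fabp4 it was 1.78 in liver and -1.34 in ileum. HFD+PP minus HFD was 2.36 for Fabp2 in colon and -2.07, a bound, in brown fat. HFD+Ex minus HFD+PP was 1.67 for Fabp1 in brown fat and -4.15 in mesenteric fat.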

How the results depend on the processing

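All 29 member differences kept their sign under every alternative that gave a value. Normexp left 22 past 1 log2, bright-probe scaling and the authors' values 28 each, and quantile normalization 27. Requiring both arrays above background gave no value for 2 and kept 27, no filter added 1 (30 in all), and averaging probes kept 29. These losses, each named beside its result, concerned Fabp2 in brown fat and colon, Fabp3 and Fabp7 in mesenteric fat, and Fabp4 and Fabp5 in liver. Their cause was not tested. Leaving out the CD arrays of colon and ileum and the HFD array of brown fat, chosen after seeing the data, left 19 of 90. Leaving out mesenteric fat left 21 of 96, where all comparisons gave 29 of 120. Fewer comparisons remained in both, and the share past 1 log2 was also somewhat lower. The members highest in 1 tissue numbered 3, and 4 under quantile normalization. Fabp4 in brown minus mesenteric fat, 1.04 log2, was 0.67 under bright-probe scaling, 0.56 in the authors' values and reversed to -0.055 under quantile normalization. For all 6 members the difference between the highest and the next tissue kept its sign when the arrays of any 1 diet were left out. The 2 tissues were picked by the means of these same arrays. For all members but Fabp5 their levels did not overlap, so this sign could not turn. The median of all genes in brown fat, HFD minus CD, was -0.13 log2 and 0.15 in the authors' values. Genes past 1 log2, summed over 20 comparisons, numbered 14575, but 5520 with normexp, 34872 with no filter and 9634 with both arrays above background. No paired analysis was possible because a diet difference is between 2 single arrays, and for the same reason slide could not be fitted as a block. Tissue differences taken within each diet, whose tissues came from the same mice, were above 0 in 4 of 4 diets for all 6 members between the highest and the next tissue. Because of the same choice of tissues, only Fabp5 could have shown another sign. Signal over background limits Fabp2 and Fabp7 in brown fat, where dim arrays give bounds.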
